A study of Homo sapiens with 48 samples.

Results

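SF3B1 knockdown was compared directly with RBM39 knockdown in IMR90 ER:RAS cells that had received DMSO, with no control library inside the contrast. IMR90 is an established line of human lung fibroblasts, and every library here came from cells that carry ER:RAS G12V, a RAS oncogene fused to an oestrogen receptor domain that 4OHT switches on and DMSO, the solvent, does not. Cells were kept in DMSO for 6 days, transfected with siRNA and moved to low serum, and RNA was taken 48 hours after transfection. By title, 16 of the 48 libraries enter the comparison: 8 siSF3B1 libraries, made with siSF3B1-13 or siSF3B1-16, and 8 siRBM39 libraries, made with siRBM39-06 or siRBM39-08, with 4 libraries for each of the 2 siRNAs per target. The 8 DMSO libraries with non-targeting siRNA (siNT1 and siNT2) were used to say which knockdown moved a gene or an event. These and the 24 libraries from 4OHT cells also lent their spread to the model and entered the filters that chose what was tested. The siRNAs act for a short time in 1 cell line, and no rescue of either factor was analysed here. The labels do not say whether the numbered libraries of an siRNA came from separate cultures, and the study's methods speak of fewer replicates than the labels list, so p-values measure the spread between libraries, which may be technical.

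Both targets belong to the early steps of splicing. SF3B1 is the large scaffold of the SF3B complex in the U2 snRNP, which places U2 on the branch site of an intron, whereas RBM39 is an RNA-binding protein related to U2AF that joins the machinery at the 3′ splice site and is also known as a transcription coactivator. Loss of either is known to cause exon skipping and intron retention. The direct contrast asks where the 2 losses part: genes and splicing events that went in opposite directions, or that moved with one knockdown and not with the other.

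The 16 libraries held between 34659429 and 52734636 counts over genes. Fibroblast markers were high in all of them, with the 10 genes of the list summing to between 48442 and 73073 counts per 1000000 of the library, though S100A4 was low at a median of 5.32 in siSF3B1 and 7.33 in siRBM39. The epithelial list summed to 43.4 to 63.7 in siSF3B1 and 45.4 to 88.2 in siRBM39 libraries, nearly all of it keratins, the endothelial list to 19.8 to 25.1 and 33.4 to 41, nearly all of it TEK, and the immune list to 37.5 to 43.4 and 33.6 to 46.5, nearly all of it CD68. The defining genes SFTPC, CDH5, PTPRC and CD3E had medians of 0 in each group. Only 2 epithelial, 1 endothelial and 1 immune marker had enough counts to test. TEK was the 1 of these that passed between the knockdowns, lower in siSF3B1, and its part in other results was not tested. Of the 10 fibroblast markers, 1 was higher and 4 were lower in siSF3B1. In bulk RNA, fewer cells of a kind and less RNA per cell cannot be told apart. One library, siRBM39-06 replicate 1, stood farthest from its own group, and the siRBM39-06 libraries differed among themselves more than those of any other siRNA here. Replicate 3 of this siRNA also stood off from replicates 2 and 4, so leaving out replicate 1 does not remove this spread. The numbers of called genes, opposite genes, called exons, introns and splice sites are also given without siRBM39-06 replicate 1, as is the count of a gene list where its count then moved by more than 1.5 times.

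The targeted genes were checked first. Levels are given in CPM, counts per 1000000 with library totals scaled by TMM. SF3B1 (ENSG00000115524) ranged from 30.4 to 35.2 CPM (median 33) in siSF3B1 libraries and from 390.3 to 544 CPM (median 508) in siRBM39 libraries, beside 311 to 396 CPM (median 362) in siNT libraries. The groups did not overlap, and SF3B1 was 15-fold lower in siSF3B1 than in siRBM39 cells (log2 fold change -3.91 ± 0.086 (SE), adjusted p = 2.81e-36, edgeR's quasi-likelihood test adjusted over all genes, n = 8 and 8). RBM39 (ENSG00000131051) showed the mirror image. It ranged from 277 to 319 CPM (median 308) in siSF3B1 and from 24.2 to 31 CPM (median 27.4) in siRBM39 libraries, with 158 to 185 CPM (median 172) in siNT (log2 fold change 3.47 ± 0.053 (SE), adjusted p = 5.56e-43). Each factor's mRNA also rose when the other factor was depleted. Against siNT, RBM39 rose 1.78-fold in siSF3B1 cells (adjusted p = 4.27e-20) and SF3B1 rose 1.37-fold in siRBM39 cells (adjusted p = 2.63e-06), both in edgeR. Both targets thus counted among the genes that moved in opposite directions.

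Of 9991 genes with enough counts to test, 6763 (67.7%) passed an adjusted p of 0.05 between the knockdowns. Of these, 3360 (33.6%) were higher and 3403 (34.1%) lower in siSF3B1 than in siRBM39 cells. Most differences were small: 462 genes differed by at least 2-fold, of which 106 were higher and 356 lower in siSF3B1. The 8 libraries of one knockdown lay wholly apart from the 8 of the other for 3553 genes (35.6%), and for 5947 of the called genes all 4 pairings of one SF3B1 siRNA with one RBM39 siRNA gave the same direction. Without siRBM39-06 replicate 1, 6772 genes were called.

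Setting both knockdowns beside the same 8 siNT libraries sorted the called genes. A total of 677 genes (6.78%) passed the test in both knockdowns with opposite signs, 274 higher and 403 lower in siSF3B1 (629 without siRBM39-06 replicate 1). This number depended on the fit, being 1101 with 1 group per siRNA in the model, and 432 and 405 when replicate 2 or replicate 3 of every siRNA was left out. Another 3117 (31.2%) passed it in siSF3B1 only and 728 (7.29%) in siRBM39 only. A further 1870 moved the same way in both, to a different extent, and 371 differed between the knockdowns while passing against siNT in neither. Because both comparisons use the same controls, the opposite class was also formed with siNT1 for siSF3B1 and siNT2 for siRBM39, and with the 2 swapped: 565 and 603 of the 677 genes kept their place. All 677 gave the same direction in the 4 siRNA pairings, and in 629 the knockdown groups did not overlap, beside 5947 and 3553 of the 6763 called genes. The class was formed from these same libraries, so pairing and overlap add no separate support for it. Missing the threshold in one knockdown does not show that a gene stayed as it was there, which is why each class also required the direct contrast.

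**Figure D1:**
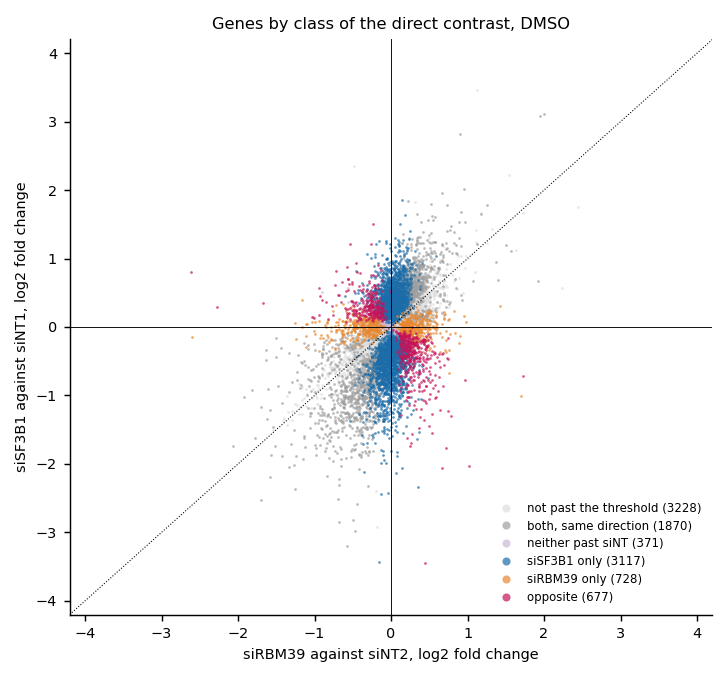
Each point is a gene, with its log2 fold change in siRBM39 against siNT2 on the horizontal axis and in siSF3B1 against siNT1 on the vertical axis (no control library is shared between the axes), coloured by the class it received in the main comparison; the dotted line marks equal change and 1 gene lies outside the axes. The 677 opposite genes fill the upper left and lower right, and the 3117 siSF3B1-only genes stretch along the vertical axis.

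Among the opposite genes that were higher in siSF3B1, named by the smaller of their 2 changes, RBM39 came first and was followed by ZNF451, RALGAPB, SULF1, GPCPD1 and PTGR1. ZNF451, a SUMO ligase, ranged from 43 to 60.5 CPM (median 57) in siSF3B1 and from 13.6 to 21 CPM (median 18.3) in siRBM39, with siNT between them at 26.6 to 32.7 CPM (median 30.7) (log2 fold change 1.62 ± 0.080 (SE), adjusted p = 1.2e-22). RALGAPB, a subunit of the complex that switches off Ral GTPases, ranged from 139.7 to 154 CPM (median 144) in siSF3B1 and from 36.6 to 53.9 CPM (median 49.6) in siRBM39, against 88.3 to 104 CPM (median 94.7) in siNT (log2 fold change 1.61 ± 0.078 (SE), adjusted p = 8.14e-23). For both genes the 3 groups formed separate bands. PTGR1, a prostaglandin reductase, lay at 129 to 189 CPM (median 161) in siSF3B1 and 53.8 to 76.9 CPM (median 65.6) in siRBM39 (log2 fold change 1.28 ± 0.075 (SE), adjusted p = 6.87e-20). SULF1, which trims sulphate from heparan sulphate chains, lay at 26.3 to 44.5 CPM (median 34.6) and 11.1 to 18.4 CPM (median 14.9) (log2 fold change 1.25 ± 0.12 (SE), adjusted p = 1.87e-12), and its rise was larger with siSF3B1-13. GPCPD1, a glycerophosphocholine phosphodiesterase, had a log2 fold change of 1.23 (adjusted p = 8.32e-21). None of these 5 overlapped between the knockdowns.

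Other opposite genes of this direction fell strongly with siRBM39 and rose a little with siSF3B1. ZDHHC2, a palmitoyltransferase, ranged from 111 to 147 CPM (median 133) in siSF3B1 and from 14 to 26 CPM (median 23.3) in siRBM39 (log2 fold change 2.60 ± 0.093 (SE), adjusted p = 8.75e-28), with log2 fold changes against siNT of 0.31 and -2.29. In the respiratory chain, NDUFS1, a core subunit of complex I, showed the same shape: 99.5 to 111 CPM (median 108) in siSF3B1 and 37.1 to 53.8 CPM (median 48.4) in siRBM39 (log2 fold change 1.17 ± 0.059 (SE), adjusted p = 2.9e-22). TH1L, the file's name for the NELF subunit NELFCD, lay at 69 to 79.1 CPM (median 75.4) and 32.8 to 36 CPM (median 35.6) (log2 fold change 1.09 ± 0.033 (SE), adjusted p = 9.62e-31). The groups did not overlap for any of the 3.

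In the other direction, lower in siSF3B1 and higher in siRBM39, the genes named by the same rule were CXCL10, C5orf54, SARNP, PTGIR, RARRES2 and SEC31B. SEC31B, which encodes a coat protein of COPII vesicles, rose 3.31-fold with siRBM39 and fell with siSF3B1. It ranged from 6.34 to 7.24 CPM (median 6.82) in siSF3B1, from 32.4 to 41.2 CPM (median 38) in siRBM39 and from 6.37 to 14.6 CPM (median 11.9) in siNT (log2 fold change -2.45 ± 0.10 (SE), adjusted p = 2.31e-26). SARNP, a factor in mRNA export, ranged from 17.7 to 27.2 CPM (median 25.2) in siSF3B1 and from 83.9 to 109 CPM (median 93.6) in siRBM39, around 51.9 to 65.2 CPM (median 55.6) in siNT (log2 fold change -1.98 ± 0.078 (SE), adjusted p = 2.55e-26). PTGIR, the prostacyclin receptor gene, was scarcer, at 1.00 to 2.07 CPM (median 1.40) and 6.78 to 9.66 CPM (median 8.32) (log2 fold change -2.50 ± 0.17 (SE), adjusted p = 7.91e-18). CXCL10, an interferon-induced chemokine gene, was called on few counts, at 0.117 to 0.486 CPM (median 0.388) in siSF3B1 and 1.83 to 3.28 CPM (median 2.60) in siRBM39 (log2 fold change -2.96 ± 0.17 (SE), adjusted p = 9.45e-20). C5orf54 had a log2 fold change of -2.15 (adjusted p = 7.54e-24). RARRES2, which encodes chemerin, reached 13.3 to 41.8 CPM (median 19.3) in siRBM39, mostly through siRBM39-06, and its log2 fold change of -1.75 became -1.55 without replicate 1 of that siRNA. The 6 genes did not overlap between the knockdowns.

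**Figure D2:**
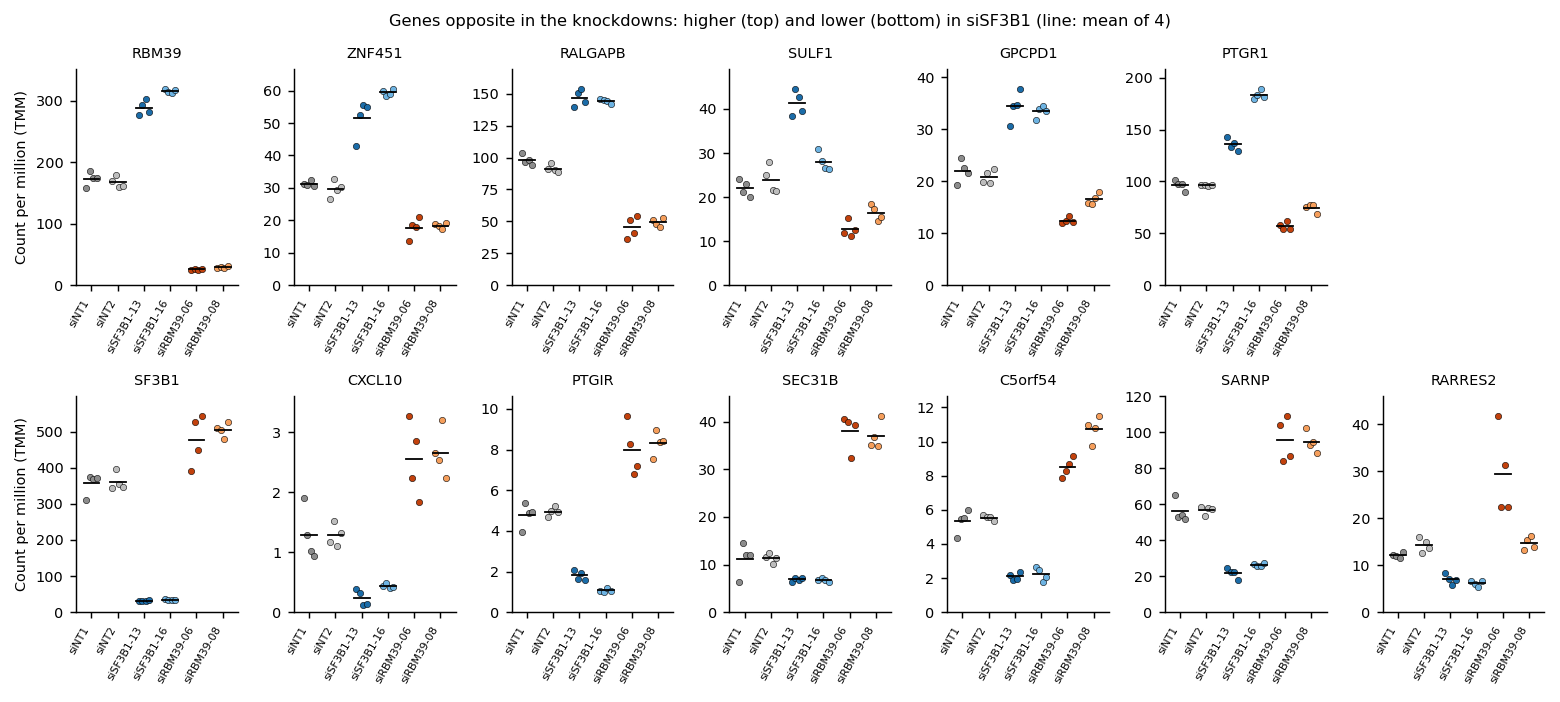
CPM (TMM-scaled, linear axis from 0) of the named opposite genes and SF3B1 in each DMSO library, by siRNA, with a line at the mean of 4 libraries; the top row is higher and the bottom row lower in siSF3B1. The blue siSF3B1 points and the orange siRBM39 points lie on opposite sides of the grey siNT points, except that SF3B1, CXCL10 and RARRES2 in some siRBM39 libraries and SULF1 in some siSF3B1 libraries reach into the siNT range, and 1 siNT1 library of SEC31B lies at 6.37 CPM among the siSF3B1 libraries.

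Genes that passed against siNT in siSF3B1 only were led on the higher side by E2F7, DUS3L, HSPA4L and ARHGAP39. E2F7 encodes an atypical E2F that represses cell cycle genes. It ranged from 41 to 128 CPM (median 73.7) in siSF3B1 and from 19.6 to 32.1 CPM (median 21.7) in siRBM39, next to 19.3 to 25.2 CPM (median 22) in siNT (log2 fold change 1.78 ± 0.20 (SE), adjusted p = 1.58e-10). Its size depended on the siRNA, with log2 fold changes from 0.71 to 2.53 over the 4 pairings. DUS3L, a tRNA dihydrouridine synthase, rose to 27.3 to 38.2 CPM (median 32.5) while siRBM39 libraries held 7.44 to 13.2 CPM (median 9.27) (log2 fold change 1.73 ± 0.12 (SE), adjusted p = 1.34e-17). HSPA4L, an Hsp110 family chaperone, and ARHGAP39, a GTPase-activating protein, differed by 1.44 and 1.42 on the log2 scale.

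On the lower side TOP2A, PLEKHJ1, SPAG5 and C7orf36 led. TOP2A, the DNA topoisomerase of dividing cells, lay at 2.80 to 8.09 CPM (median 5.66) in siSF3B1 and at 22.4 to 49.4 CPM (median 42) in siRBM39, with 40.8 to 59.8 CPM (median 46.9) in siNT (log2 fold change -2.86 ± 0.18 (SE), adjusted p = 8.13e-19). PLEKHJ1 lay at 5.49 to 8.53 CPM (median 6.13) and 27.8 to 55.1 CPM (median 32.4) (log2 fold change -2.50 ± 0.20 (SE), adjusted p = 2.45e-15). SPAG5, a spindle protein gene, and C7orf36 had log2 fold changes of -1.96 and -1.86. No group overlapped for these 8 genes.

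The siRBM39-only genes were fewer. PANK2, a pantothenate kinase that starts coenzyme A synthesis, lay at 29.4 to 34.8 CPM (median 32.9) in siSF3B1, 29 to 32.4 CPM (median 30.2) in siNT and 10.9 to 13.7 CPM (median 12.8) in siRBM39 (log2 fold change 1.37 ± 0.050 (SE), adjusted p = 1.05e-27). KCNN2, a potassium channel gene, had a log2 fold change of 1.36, but its groups overlapped and its size ran from 0.21 to 2.16 over the siRNA pairings. An entry labelled AK3 under ENSG00000162433, which the reference names AK4, differed by 1.47 at a median of 1.91 CPM in siSF3B1. In the other direction, the genes named for a rise with siRBM39 only were expressed weakly. C11orf96 reached 2.99 to 6.72 CPM (median 3.85) in siRBM39 against 1.33 to 2.54 CPM (median 1.93) in siSF3B1 (log2 fold change -1.14 ± 0.19 (SE), adjusted p = 1.49e-06). VNN1 (pantetheinase), ASB2 (a ubiquitin ligase receptor) and the chemokine gene CXCL5 had medians of 0.375, 0.382 and 0.481 CPM in siRBM39 and log2 fold changes of -2.19, -1.34 and -1.19. ASB2 and CXCL5 overlapped between the groups.

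Several of the largest gaps came from genes that both knockdowns moved the same way. MTHFD2L, a mitochondrial folate enzyme, rose in both but further in siSF3B1, to 5.61 to 8.06 CPM (median 6.56) against 1.28 to 2.10 CPM (median 1.80) in siRBM39 and 0.656 to 1.08 CPM (median 1.01) in siNT (log2 fold change 1.90 ± 0.10 (SE), adjusted p = 4.7e-22). HSPA14, an Hsp70 family member that works at the ribosome, lay at 33.5 to 41.5 CPM (median 37.3) and 10.7 to 12.3 CPM (median 11.7) (log2 fold change 1.68 ± 0.052 (SE), adjusted p = 2.45e-30). AASS, an enzyme of lysine breakdown, fell in both and lay at 1.41 to 3.52 CPM (median 2.16) in siSF3B1 and 8.30 to 14.5 CPM (median 11.8) in siRBM39 (log2 fold change -2.35 ± 0.13 (SE), adjusted p = 3.02e-21). FAM133B, an opposite gene, was also among the 10 largest higher genes, with 1.67.

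Lists of genes were then followed as groups, described by their counts beside the shares over all genes, 33.6% higher and 34.1% lower, and beside the median log2 fold change of all genes, 0.0043. The U2 snRNP and its SF3 partners split: of 20 genes, 9 were higher and 8 lower in siSF3B1, with a median of 0.045. Of the 20, 5 were opposite genes, all lower in siSF3B1, and SF3B1 itself is not in the list. DDX42, an RNA helicase that binds SF3B1, ranged from 55.5 to 62.7 CPM (median 60.3) in siSF3B1 and from 156 to 170.2 CPM (median 164) in siRBM39 (log2 fold change -1.44 ± 0.038 (SE), adjusted p = 3.85e-33). SR140, the file's name for the U2-associated protein U2SURP, lay at 31.8 to 46.9 CPM (median 40.8) and 79.5 to 109 CPM (median 97.6) (log2 fold change -1.26 ± 0.092 (SE), adjusted p = 1.59e-16). SNRPA1, the U2 A′ protein, differed by -0.76. The helicase DDX46 went the other way, at 129 to 172 CPM (median 151) in siSF3B1 and 52.8 to 72 CPM (median 64.9) in siRBM39 (log2 fold change 1.24 ± 0.062 (SE), adjusted p = 1.96e-22), and was followed by SF3B4 (0.51) and SNRPB2 (0.49). These 6 genes did not overlap between the groups.

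Among RBM39 relatives and U2AF genes, 6 of 8 listed were tested, 4 were higher and 1 lower, or 4 and 2 without siRBM39-06 replicate 1. PUF60, a U2AF-like factor, U2AF2 and RBM23, the nearest relative of RBM39, were higher in siSF3B1 by 0.39, 0.30 and 0.18 on the log2 scale. SF1, which recognises the branch site before U2, was lower (log2 fold change -0.40 ± 0.053 (SE), adjusted p = 6.7e-09). Of 13 SR protein genes tested, 7 were higher and 2 lower, and SRSF5 was the opposite one, at 73.2 to 84.9 CPM (median 80.6) in siSF3B1 and 105 to 129.6 CPM (median 118) in siRBM39 (log2 fold change -0.55 ± 0.043 (SE), adjusted p = 1.83e-15). Of 26 hnRNP and PTB genes 8 were higher and 12 lower, among them HNRNPU (-0.76), HNRNPM (-0.64, opposite) and HNRNPH1 (-0.55), while HNRNPR (0.44) was higher. HNRNPU, which binds nuclear RNA, showed no overlap, with 277 to 308 CPM (median 291) and 479 to 523 CPM (median 492).

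Of 22 tri-snRNP protein genes tested, 13 were higher and 5 lower, with a median log2 fold change of 0.26. PRPF3, a U4/U6 protein, ranged from 104 to 118 CPM (median 112) in siSF3B1, from 40.8 to 47.8 CPM (median 43.1) in siRBM39 and from 27.2 to 32.4 CPM (median 31.9) in siNT (log2 fold change 1.36 ± 0.037 (SE), adjusted p = 1.72e-32), rising in both knockdowns. PRPF4 (0.92) and the helicase DDX23 (0.74) were also higher, whereas LSM7 (-1.05) was lower with overlapping groups. Among 12 U1 and Sm protein genes 6 were higher, with SNRPD1 in front (0.81), and 2 lower, LUC7L (log2 fold change -0.92 ± 0.12 (SE), adjusted p = 7.5e-09) and LUC7L3 (-0.36, with overlap). LUC7L rose with siRBM39 only. The exon junction complex had 6 of 9 genes higher and 0 lower, in edgeR, in DESeq2 and at an unadjusted p under 0.05, with a median of 0.35, and SAP18 led it (0.53). Of 11 splicing kinase genes 6 were higher and 4 lower. CLK4 and CLK1, kinases that phosphorylate SR proteins, were opposite, CLK4 at 6.62 to 10.1 CPM (median 8.14) in siSF3B1 and 14 to 20.1 CPM (median 17.6) in siRBM39 (log2 fold change -1.10 ± 0.072 (SE), adjusted p = 5.76e-18) and CLK1 at -0.76. Nonsense-mediated decay factors had 4 of 10 higher and 4 lower, with a median of 0.030, but single members ran from -1.56 to 1.57 on the log2 scale. Among them 1 opposite gene was higher and 1 lower in siSF3B1.

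Mitosis genes were mostly lower in siSF3B1. Of 37 mitosis genes listed, 20 had enough counts, and 18 of these were lower and 1 higher, with a median log2 fold change of -1.06. KIF20A, a mitotic kinesin, ranged from 0.949 to 4.18 CPM (median 2.37) in siSF3B1, from 7.27 to 17.2 CPM (median 13) in siRBM39 and from 16.8 to 22 CPM (median 18.5) in siNT (log2 fold change -2.36 ± 0.21 (SE), adjusted p = 7.97e-14). PRC1, which bundles midzone microtubules, lay at 3.39 to 8.48 CPM (median 5.88) and 15.4 to 26.2 CPM (median 21.8) (log2 fold change -1.83 ± 0.16 (SE), adjusted p = 4.05e-14). TOP2A was given above. All 3 were free of overlap, and all 3 differed more with siSF3B1-13 than with siSF3B1-16, TOP2A from -3.94 to -1.98 over the pairings. ECT2, which acts in cytokinesis, was the higher one (0.40), having fallen further with siRBM39, with overlapping groups. Against siNT the list's median was -1.23 in siSF3B1 and -0.039 in siRBM39.

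DNA replication genes followed: 17 of 26 tested were lower and 2 higher, with a median of -0.51. MCM7, a subunit of the replicative helicase, ranged from 18.5 to 20.9 CPM (median 19.6) in siSF3B1 and from 36.3 to 53.5 CPM (median 41.4) in siRBM39 (log2 fold change -1.11 ± 0.075 (SE), adjusted p = 1.21e-17). RFC1, which loads the sliding clamp, differed by -1.03 and RRM2, a ribonucleotide reductase subunit, by -1.04. RPA2 (0.45) and MCM2 (0.30) were higher. Cohesin and anaphase-promoting complex genes were divided, 4 of 22 higher and 6 lower. CDC16, a subunit of the anaphase-promoting complex, lay at 21.1 to 29.5 CPM (median 25) in siSF3B1, 61.3 to 80.7 CPM (median 68.1) in siRBM39 and 81.4 to 88.8 CPM (median 85.5) in siNT (log2 fold change -1.47 ± 0.064 (SE), adjusted p = 1.49e-24), and fell in both. Homologous recombination and Fanconi genes gave 4 higher and 4 lower of 12, or 2 and 5 without siRBM39-06 replicate 1, with BRCA1 at -0.54.

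The p53 target list went the other way, with 18 of 23 genes higher, 2 lower and a median of 0.40. SESN1, a stress-responsive regulator of mTORC1, ranged from 72.2 to 86.3 CPM (median 79.2) in siSF3B1 and from 31.8 to 40.5 CPM (median 34.8) in siRBM39, close to 33.8 to 44.3 CPM (median 37.3) in siNT (log2 fold change 1.17 ± 0.060 (SE), adjusted p = 6.29e-22). PLK3, a stress kinase, was opposite, at 46.9 to 77.7 CPM (median 58.1) and 29.5 to 34.5 CPM (median 31.3) (log2 fold change 0.90 ± 0.064 (SE), adjusted p = 7.31e-17). FDXR, which feeds electrons to mitochondrial P450 enzymes, differed by 0.92 with overlapping groups. The 2 lower genes were TP53I3 (-0.27) and XPC (-0.22), and without siRBM39-06 replicate 1 TP53I3 no longer passed (adjusted p = 0.0701).

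Cholesterol synthesis and SREBP2 target genes were lower in siSF3B1 without exception among those called: 19 of 22 tested were lower and 0 higher, in edgeR, in DESeq2 and at an unadjusted p under 0.05, with a median of -0.65. MVD, a mevalonate pathway enzyme, ranged from 24.5 to 38.7 CPM (median 33.4) in siSF3B1, from 81.4 to 151 CPM (median 87.8) in siRBM39 and from 85.5 to 113 CPM (median 97.8) in siNT (log2 fold change -1.64 ± 0.18 (SE), adjusted p = 4.26e-11). INSIG1, which holds the SREBP pathway in check, differed by -1.08. Neither overlapped between the knockdowns, although INSIG1 ran from -1.72 to -0.46 over the siRNA pairings. Of the 22, 12 were siSF3B1-only and 7 fell in both knockdowns.

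Interferon-stimulated genes were mostly lower or not past the test: 11 of 21 tested were lower and 2 higher, with a median of -0.40, and 18 of the 39 listed had too few counts. OAS3, an antiviral oligoadenylate synthetase, ranged from 1.56 to 3.37 CPM (median 1.96) in siSF3B1, from 5.54 to 12 CPM (median 8.20) in siRBM39 and from 10.1 to 17.9 CPM (median 13.9) in siNT (log2 fold change -1.99 ± 0.17 (SE), adjusted p = 1.76e-14). PSMB8, an immunoproteasome subunit, differed by -1.13 and SAMD9L by -1.19, the latter with overlap. IRF9 (0.34) and TAP1 (0.19) were the 2 higher, and TAP1 changed sign in 2 of the siRNA pairings.

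The inflammatory secretome, the secreted factors that senescent cells are known for, was divided in these uninduced cells: 8 of 29 higher and 7 lower, median 0.040. IGFBP5, an abundant secreted binder of insulin-like growth factors, ranged from 6012 to 6688 CPM (median 6268) in siSF3B1 and from 2821 to 4639 CPM (median 4149.8) in siRBM39 (log2 fold change 0.67 ± 0.077 (SE), adjusted p = 1.54e-10). IL8, the file's name for CXCL8, was opposite on low counts, at 0.348 to 0.682 CPM (median 0.535) and 0.886 to 1.96 CPM (median 1.31) (log2 fold change -1.39 ± 0.24 (SE), adjusted p = 1.29e-06), and CXCL1 was lower by -0.95.

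Collagens were lower in siSF3B1 for 17 of 25 tested and higher for 3, with a median of -0.39. COL13A1, a transmembrane collagen, ranged from 14.4 to 19.6 CPM (median 17.4) in siSF3B1, from 28 to 67.7 CPM (median 42) in siRBM39 and from 59.2 to 68.9 CPM (median 67.3) in siNT (log2 fold change -1.39 ± 0.14 (SE), adjusted p = 2.29e-12). COL14A1 followed, with medians of 35.8 and 72.2 CPM (adjusted p = 2.89e-13), and COL4A5 with -0.94. COL11A1, a fibrillar collagen, was higher and opposite (0.52). COL1A1 was higher by 0.38 (adjusted p = 0.0364), but without siRBM39-06 replicate 1 its adjusted p was 0.0782, and it changed sign in 1 siRNA pairing.

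Contractile genes and YAP or SRF targets were mixed, 4 of 20 higher and 7 lower. MYH10, a non-muscle myosin heavy chain, lay at 42.6 to 69.1 CPM (median 54.4) in siSF3B1 and 166 to 196 CPM (median 183) in siRBM39 (log2 fold change -1.72 ± 0.077 (SE), adjusted p = 3.3e-24). The YAP targets CTGF (log2 fold change 1.08 ± 0.061 (SE), adjusted p = 1.65e-20), AMOTL2 (0.88) and CYR61 (0.54) were higher, CTGF with 1035 to 1097 CPM (median 1069.6) against 452 to 569.7 CPM (median 484). The smooth muscle genes LMOD1 (-0.75) and CNN1 (-0.50) were lower.

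ATF4 and ER stress targets had 9 of 20 higher and 6 lower. ASNS, asparagine synthetase, lay at 40.6 to 49.4 CPM (median 44.7) in siSF3B1 and 61 to 164 CPM (median 115) in siRBM39 (log2 fold change -1.36 ± 0.16 (SE), adjusted p = 2.15e-10), while the amino acid transporter subunit SLC3A2 was higher (log2 fold change 0.90 ± 0.095 (SE), adjusted p = 1.56e-11). CRELD2, an ER chaperone gene, was opposite (-1.23). Ribosome biogenesis genes had 26 of 43 higher and 12 lower (median 0.20), with WDR43 (0.73) among the higher and UTP20 (log2 fold change -1.18 ± 0.12 (SE), adjusted p = 2.59e-12) and POLR1A (-0.85) among the lower. Transcription elongation genes had 13 of 27 higher and 4 lower, including the PAF1 complex subunits CTR9 (-0.97) and PAF1 (-0.76) and the kinase CDK9 (-0.49). Zinc finger genes with a ZNF number had 131 of 264 higher and 54 lower (median 0.16).

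The remaining lists were near even or little moved. Cytosolic ribosomal proteins had 7 of 73 higher and 4 lower, or 15 and 3 without siRBM39-06 replicate 1, and 62 did not pass. Mitochondrial ribosomal proteins had 25 of 73 higher and 14 lower, with MRPS6 opposite (log2 fold change -1.18 ± 0.082 (SE), adjusted p = 2.99e-17). Respiratory chain and ATP synthase genes had 19 of 67 higher and 18 lower, with UQCRC2, a complex III core protein, at -0.96. Proteasome subunits had 13 of 36 higher and 10 lower, with PSMD12 (0.80) among the higher and PSMD5 (-0.87) among the lower. PSMD2 fell with siRBM39 only and differed by 0.71. Lysosomal genes had 9 of 37 higher and 13 lower, and tRNA synthetase genes 8 of 23 higher and 6 lower.

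**Figure D3:**
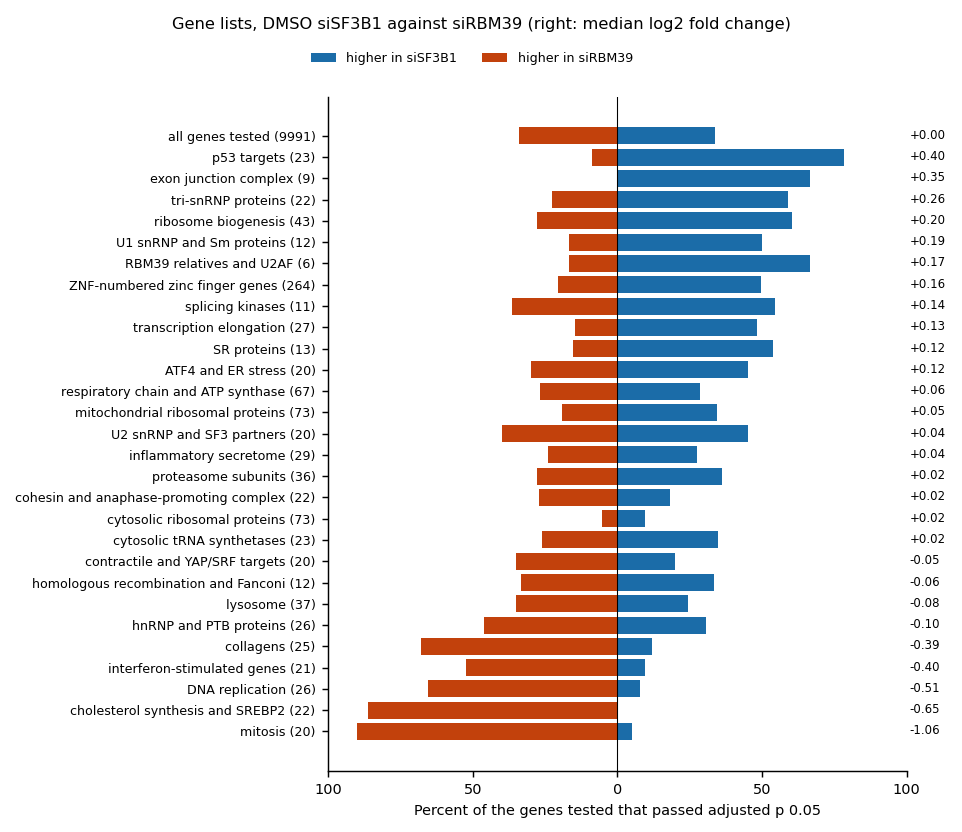
For each gene list shown (number tested in brackets) the bars give the percent of its tested genes that passed an adjusted p of 0.05, higher in siSF3B1 to the right and higher in siRBM39 to the left, with the list's median log2 fold change at the right edge. The nonsense-mediated decay and cell type marker lists are not drawn. Mitosis and cholesterol synthesis reach farthest left and p53 targets farthest right, beside 33.6% and 34.1% for all genes.

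Splicing was read as percent spliced in (PSI), the share of junction reads that include an exon, retain an intron or use a given splice site. Over the 7673 cassette exons tested, the mean PSI of a library was 78.5 to 79.9% (median 79.3%) in siSF3B1, 82.36 to 82.44% (median 82.39%) in siRBM39 and 83.66 to 83.72% in siNT. The 3 groups were separate, and siSF3B1 lay 3.09 points under siRBM39 (p = 0.000155 in an exact two-sided permutation test, the smallest p of its 12870 splits). siSF3B1-13 gave a lower mean, 78.8 ± 0.20% (SD, n = 4), than siSF3B1-16, 79.8 ± 0.11%, while siRBM39-06 and siRBM39-08 both gave 82.4%. These means cover exons whose PSI varied by at least 5 points across libraries, and over all 24757 exons with coverage the gap was 1.00 points. Intron retention ran the other way. Over 5248 introns the mean PSI was 3.18 to 4.01% (median 3.30%) in siSF3B1, 1.79 to 2.28% (median 2.02%) in siRBM39 and 0.904 to 1.80% in siNT, a gap of 1.36 points between the knockdowns (exact permutation p = 0.000155). The knockdowns did not overlap, whereas the lowest siRBM39 library lay within the siNT range. The size of the intron gap depended on the filters: it was 0.397 points over introns of any PSI range and 2.54 points without the balance filter.

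Exon by exon, 1567 of 7673 (20.4%) were included less and 227 (2.96%) more in siSF3B1 than in siRBM39 cells, at an adjusted p of 0.05 and at least 5 points (limma on the logit of PSI). The 8 and 8 libraries did not overlap for 1154 exons (15%). By class, 1354 of the called exons moved with siSF3B1 only, 1307 of them lower, and 127 with siRBM39 only, 88 of them higher in siSF3B1 because siRBM39 lowered them. A further 42 exons (0.547%) in 40 genes moved in opposite directions, 15 higher and 27 lower in siSF3B1. In 41 of the 42 the groups did not overlap and all 42 agreed over the siRNA pairings, beside 965 and 1787 of the 1794 called exons. Since the class was formed from these same libraries, this adds no separate support. With separate control libraries, 26 and 31 of the 42 kept their class. Without siRBM39-06 replicate 1, 1782 exons were called.

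Short exons stood on the siSF3B1-lower side. Of 99 exons of at most 27 nt, often called microexons, 39 (39.4%) were lower and 5 higher in siSF3B1. The lower share was 33.2% of exons of 28 to 50 nt, 25.7% of 51 to 100 nt, 15.5% of those over 100 and up to 200 nt and 9.59% of longer ones. The median siNT PSI of the microexons was 11.6%, against 99.5% for all exons, so these classes also differ in how often the exon is used. The opposite exons had a median length of 68 nt against 105 nt for all, 27 of them (64.3%) had a length that is a multiple of 3 against 42.3% of all, and 7 (16.7%) were microexons against 1.29% of all. No list of exons was tested for this, and the shares are descriptions. Of the 42, 37 matched an annotated exon, and their median share of pyrimidines in the 17 bases from position -20 to -4 before the exon was 70.6%, against 76.5% over all 6302 matched exons. The called exons higher in siSF3B1 and the siRBM39-only exons had the same 70.6%. The median siNT PSI of the opposite exons was 63.1%, and an exon near 100% cannot rise by 5 points. Length, frame and pyrimidines were not compared with exons of similar use.

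Of the 7 opposite microexons, 6 could be placed on the genome, and their sequences are shown because 5 of them were among the 6 largest opposite exon changes. Each line gives 40 bases of the intron before the exon in lower case, the exon in capitals and 10 bases of the intron after it, 5′ to 3′ on the gene's strand, from GRCh37. The 12 nt exon of PTPRS is at chr19:5218798-5218809, - strand, the 27 nt exon of SNX14 at chr6:86248556-86248582, - strand, the 24 nt exon of GOPC at chr6:117898611-117898634, - strand, the 6 nt exon of AP2M1 at chr3:183898433-183898438, + strand, the 9 nt exon of MAP4K4 at chr2:102484491-102484499, + strand and the 9 nt exon of PSAP at chr10:73583645-73583653, - strand.
PTPRS: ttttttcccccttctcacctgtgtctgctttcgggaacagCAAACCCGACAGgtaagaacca
SNX14: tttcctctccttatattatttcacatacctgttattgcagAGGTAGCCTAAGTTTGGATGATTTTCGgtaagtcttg
GOPC: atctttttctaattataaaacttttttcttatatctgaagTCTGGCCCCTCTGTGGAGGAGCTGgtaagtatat
AP2M1: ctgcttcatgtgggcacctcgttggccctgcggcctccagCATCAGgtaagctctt
MAP4K4: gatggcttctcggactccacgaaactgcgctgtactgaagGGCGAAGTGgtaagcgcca
PSAP: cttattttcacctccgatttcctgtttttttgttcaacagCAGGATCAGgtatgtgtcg

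All 7 were included more than in siNT when RBM39 was depleted and less when SF3B1 was. The PTPRS exon, in a receptor tyrosine phosphatase, had a PSI of 0 to 10.7% (median 3.85%) in siSF3B1, 92.4 to 100% (median 100%) in siRBM39 and 34.6 to 70.5% (median 56.8%) in siNT (-92.7 ± 4.27 points (SE), adjusted p = 9.05e-18). It thus went from nearly absent to nearly constant, on a median of 44 and 12 reads. The SNX14 exon, in a sorting nexin, had 5.63 to 19.4% (median 14.6%) in siSF3B1 and 95.4 to 100% (median 97.7%) in siRBM39 (-82.9 ± 2.43 points (SE), adjusted p = 4.47e-20). GOPC encodes a Golgi scaffold protein, and its exon, with AP2M1 chosen after values were seen, was at 0% in all 8 siSF3B1 libraries, at 1.32 to 13.4% (median 7.5%) in siNT and at 43.6 to 87.2% (median 67.7%) in siRBM39 (-66.7 ± 3.02 points (SE), adjusted p = 1.29e-21). Most of its gap came from siRBM39. The 6 bases of AP2M1, the medium subunit of the clathrin adaptor AP2, were included at 14.8 to 19.5% (median 17.1%) in siSF3B1, 77.5 to 87.2% (median 82.2%) in siRBM39 and 64.4 to 71.1% (median 68.8%) in siNT, on a median of 716 and 796 reads in the knockdowns (-64.6 ± 1.04 points (SE), adjusted p = 7e-29). MAP4K4, a kinase of the stress-activated pathway, had 8.66 to 18.9% (median 15.7%) and 61.5 to 71.1% (median 68.4%) (-52.6 ± 1.57 points (SE), adjusted p = 1.35e-22). PSAP, the precursor of the saposins that help degrade sphingolipids, had 33.2 to 42.5% (median 35.7%) and 76.4 to 83.1% (median 80.1%) (-42.6 ± 1.28 points (SE), adjusted p = 4.89e-21). RPS24, a ribosomal protein, had a 22 nt exon at a mean of 48.7, 87.8 and 73.4% in siSF3B1, siRBM39 and siNT. In none of the 7 did the knockdowns overlap.

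Longer exons of the same direction included MARK3, a microtubule affinity-regulating kinase, whose 45 nt exon (chr14:103966493-103966537, + strand) had a PSI of 5.6 to 21.4% (median 13%) in siSF3B1, 77.2 to 93.2% (median 88.1%) in siRBM39 and 49.9 to 77.2% (median 58.2%) in siNT (-75.4 ± 3.22 points (SE), adjusted p = 1.07e-20). HHLA3 had a 52 nt exon at 1.18 to 9.33% (median 6.54%) and 37 to 57.3% (median 39.9%) (-37 ± 2.64 points (SE), adjusted p = 1.56e-14). The 32 nt exon of CD47, the "don't eat me" receptor, had means of 47 and 98% around 84% in siNT. The 36 nt exon of HNRNPA2B1, an hnRNP gene, had means of 19.2 and 46.3% around 27.4%. The MARK3 and HHLA3 groups did not overlap.

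Tropomyosin 1 showed both directions in 1 gene. TPM1, an actin-binding protein, is known to choose between a pair of neighbouring 76 nt exons, shown here because siSF3B1 and siRBM39 pushed the choice opposite ways. The upstream exon is at chr15:63353397-63353472, + strand and the downstream exon at chr15:63353912-63353987, + strand, with the same layout as above.
TPM1 upstream: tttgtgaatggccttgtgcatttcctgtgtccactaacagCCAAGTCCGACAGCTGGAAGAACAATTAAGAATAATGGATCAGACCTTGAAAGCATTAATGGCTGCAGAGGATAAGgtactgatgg
TPM1 downstream: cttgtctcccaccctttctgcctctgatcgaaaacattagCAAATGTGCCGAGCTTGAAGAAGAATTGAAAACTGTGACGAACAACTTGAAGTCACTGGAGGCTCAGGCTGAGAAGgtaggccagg
U2AF1: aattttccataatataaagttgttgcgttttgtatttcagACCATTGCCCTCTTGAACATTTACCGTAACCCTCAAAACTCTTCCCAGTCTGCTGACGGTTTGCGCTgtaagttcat
The upstream TPM1 exon had a PSI of 49.9 to 64.1% (median 55.9%) in siSF3B1, 18.2 to 26.4% (median 20.9%) in siRBM39 and 29.7 to 43% (median 35.8%) in siNT (35.7 ± 1.85 points (SE), adjusted p = 1.21e-13). The downstream exon had 40.9 to 55.9% (median 45.9%), 77.4 to 86.2% (median 80.9%) and 61.2 to 69.1% (median 66.1%) (-33.1 ± 1.84 points (SE), adjusted p = 2.65e-15). Neither pair of groups overlapped, and since the reads of one exon's inclusion are reads of the other's exclusion the 2 results are not independent. U2AF1, which reads the AG at the 3′ splice site, also holds alternative 67 nt exons, and the one at chr21:44520563-44520629, - strand (the third line) rose to 64.1 to 77.1% (median 73.9%) in siSF3B1 and fell to 33.6 to 45.8% (median 43%) in siRBM39, around 44.4 to 65.2% (median 56.1%) in siNT (31.9 ± 3.25 points (SE), adjusted p = 5.43e-10). The 2 knockdowns did not overlap, while some libraries of each reached into the siNT range.

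The largest higher exon was in PUF60, where 51 nt were included at 50.1 to 69.2% (median 59.6%) in siSF3B1, 9.16 to 22.2% (median 14.9%) in siRBM39 and 36.4 to 49.5% (median 45.8%) in siNT (45.7 ± 2.64 points (SE), adjusted p = 1.21e-16), an opposite event without overlap. Other opposite exons of this direction had means in siSF3B1 and siRBM39 of 76.5 and 45.5% in PFKM, the muscle phosphofructokinase, of 92.8 and 64.4% in RHOT2, a mitochondrial GTPase, and of 23.2 and 1.85% in SS18, a BAF complex subunit.

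**Figure D4:**
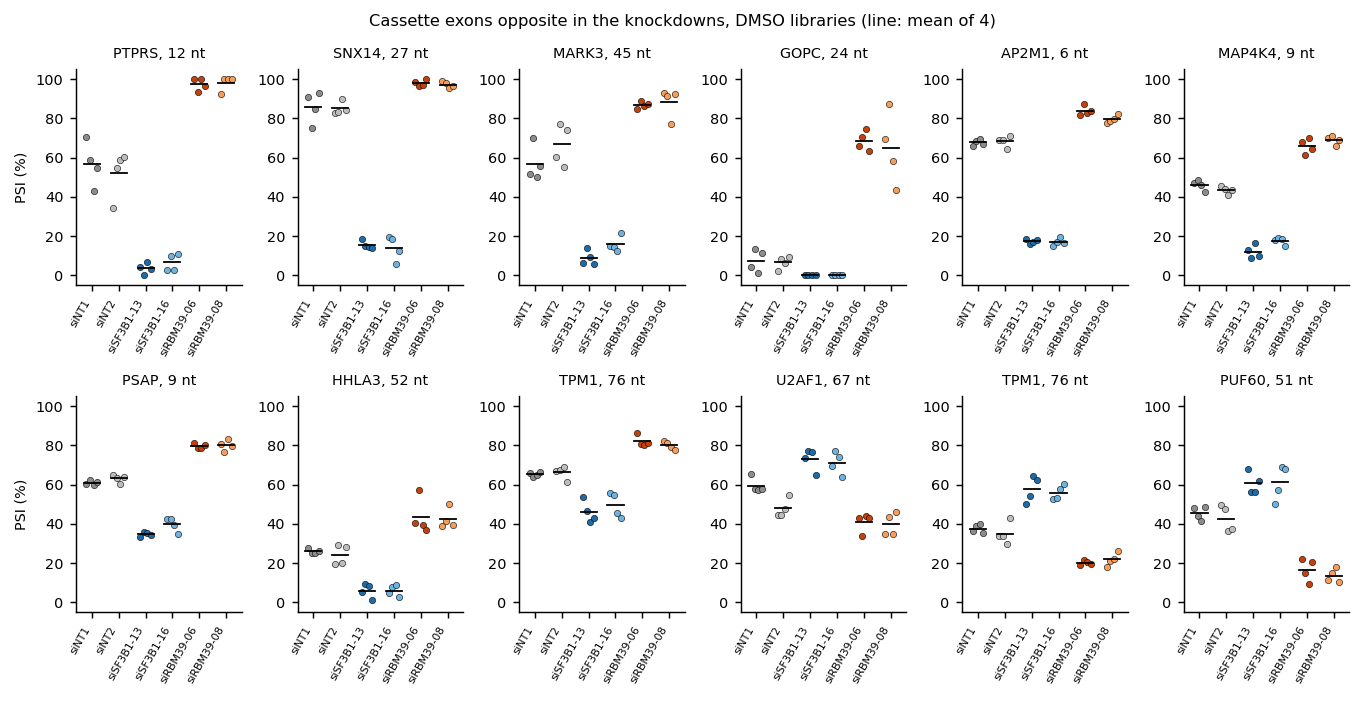
PSI (0 to 100%) of 12 opposite cassette exons in each DMSO library, by siRNA, with a line at the mean of 4 libraries; the first TPM1 panel is the downstream and the second the upstream exon. In the first 9 panels the blue siSF3B1 points lie below and orange siRBM39 points above the grey siNT points, except that 1 siRBM39 and 1 siNT2 library of MARK3 share a PSI of 77.2%, and in U2AF1, the upstream TPM1 exon and PUF60 the order is turned, with siNT and knockdown points of U2AF1 overlapping.

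Exons that moved with siSF3B1 only were far more numerous and nearly all lower. HERPUD1, an ER stress gene, held the largest: its 72 nt exon, at chr16:56969316-56969387, + strand, follows an upstream intron of 91 nt and is printed in the layout above.
HERPUD1: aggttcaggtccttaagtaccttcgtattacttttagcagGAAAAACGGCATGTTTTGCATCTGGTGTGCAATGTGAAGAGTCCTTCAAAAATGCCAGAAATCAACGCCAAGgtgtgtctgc
DCAF6: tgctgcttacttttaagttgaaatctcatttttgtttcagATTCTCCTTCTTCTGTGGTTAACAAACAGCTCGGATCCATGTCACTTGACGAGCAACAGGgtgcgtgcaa
The HERPUD1 exon had a PSI of 23.5 to 38.6% (median 30.7%) in siSF3B1, 95.5 to 100% (median 97.8%) in siRBM39 and 97.7 to 100% (median 100%) in siNT (-67.5 ± 1.86 points (SE), adjusted p = 1.58e-17). The 44 nt exon of C1orf128 had 27.3 to 51% (median 42.2%) and 95.2 to 100% (median 98.6%) (-59.6 ± 2.83 points (SE), adjusted p = 3.59e-16). In C12orf23 a 68 nt exon had 12.9 to 24.2% (median 18.2%) and 63.9 to 80.5% (median 74%) (-55.1 ± 2.18 points (SE), adjusted p = 3.59e-21). For all 3 the siRBM39 libraries overlapped the siNT libraries and lay apart from the siSF3B1 libraries.

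With siRBM39 only, the largest gaps were exons that were lower in siRBM39. TSTA3, a GDP-fucose synthesis enzyme, had a 129 nt exon at 90.9 to 100% (median 100%) in siSF3B1, 92 to 100% (median 96.7%) in siNT and 34.5 to 82.1% (median 56.6%) in siRBM39 (43.9 ± 4.28 points (SE), adjusted p = 4.66e-10), with wide spread between the libraries of siRBM39. AGAP3, an Arf GTPase-activating protein, had a 197 nt exon at 33.6 to 62.7% (median 52.8%) and 0 to 23% (median 8.62%) (40.4 ± 4.09 points (SE), adjusted p = 1.07e-09). The DCAF6 exon of 60 nt, at chr1:167992226-167992285, + strand and printed above between long introns of 18194 and 15323 nt, had 27.9 to 48.2% (median 38.3%) and 2 to 14.3% (median 8.48%) (30.8 ± 4.46 points (SE), adjusted p = 5.92e-07). DCAF6 is a substrate receptor of a cullin ubiquitin ligase, the same class of complex through which aryl sulphonamide drugs are known to degrade RBM39 by way of DCAF15. The groups did not overlap in the 3.

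Introns were retained more in siSF3B1 for 440 of 5248 (8.38%) and less for 68 (1.3%). No intron was opposite in limma, and 0 met the same rule at an unadjusted p under 0.05. This count says little, because an intron near 0% cannot fall by the change that a call requires. The median siNT PSI of the tested introns was 0.7475%. Against siNT, only 18 introns were called lower in siSF3B1 and 8 in siRBM39. Of the called introns, 404 moved with siSF3B1 only, 396 of them higher, and 32 with siRBM39 only, 29 of them lower in siSF3B1. Short introns were called higher most often, 14.5% of those of at most 150 nt against 2.18% of those over 3000 nt. MKNK2, a kinase that phosphorylates eIF4E, retained an intron of 103 nt at 25.5 to 48.6% (median 35.2%) in siSF3B1, 0.480 to 2.49% (median 1.06%) in siRBM39 and 0 to 3.12% (median 0.830%) in siNT (33.9 ± 1.94 points (SE), adjusted p = 2.3e-18). FOXF2, a forkhead factor of lung mesenchyme, retained 3577 nt at 39.6 to 65% (median 59.6%) and 1.41 to 11.4% (median 4.25%) (50.2 ± 2.79 points (SE), adjusted p = 1.33e-11). JTB retained 200 nt at 33.9 to 52.6% (median 44%) and 6.88 to 13.5% (median 8.98%) (34.9 ± 2.97 points (SE), adjusted p = 1.33e-11). TRAF7, a ubiquitin ligase, retained 585 nt in both knockdowns but more in siSF3B1, with 30.4 to 56.6% (median 47.2%) and 5.95 to 24% (median 9.38%) (34.4 ± 3.06 points (SE), adjusted p = 2.51e-07). The 4 were separate between the knockdowns, as were 237 of the 508 called introns, and the largest differences were named only among such introns. Without siRBM39-06 replicate 1, 516 introns were called in place of 508.

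The introns lower in siSF3B1 included splicing genes themselves. HNRNPH1 retained a 206 nt intron at 18 to 34.8% (median 29.7%) in siSF3B1 and 39.7 to 62.1% (median 45.8%) in siRBM39 (-22.6 ± 4.54 points (SE), adjusted p = 0.000142), and SFRS18, the file's name for PNISR, retained 1118 nt at 26 to 43.4% (median 32.4%) and 44.5 to 68.2% (median 52.2%) (-20.6 ± 3.68 points (SE), adjusted p = 0.000203). C1orf63 held an intron of 1516 nt that control cells retained and that both knockdowns retained less: 61.4 to 94% (median 85.1%) in siNT, 22.7 to 36.2% (median 25.3%) in siRBM39 and 5.52 to 10.6% (median 7.26%) in siSF3B1 (-19.7 ± 2.71 points (SE), adjusted p = 2.03e-07). STAT2, a mediator of interferon signals, retained 293 nt with siRBM39 only, at 19.1 to 25.2% (median 24.3%) against 3.78 to 15.5% (median 8.00%) in siSF3B1 (-14.8 ± 1.85 points (SE), adjusted p = 8.35e-06). CENPT, a kinetochore protein, did so for 667 nt with overlapping groups (-18.8 ± 3.12 points (SE), adjusted p = 1.63e-05). The 3 introns lowered by siRBM39 only were in DUS1L, PPP6R2 and YTHDF2. DUS1L, a tRNA dihydrouridine synthase, had 17.2 to 38.5% (median 29.3%) in siSF3B1 and 3.37 to 13.9% (median 9.36%) in siRBM39 (18 ± 2.86 points (SE), adjusted p = 3.05e-06), and PPP6R2 and YTHDF2 overlapped.

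At alternative 3′ splice sites, 57 of 547 (10.4%) were used more and 37 (6.76%) less in siSF3B1, and 48 (8.78%) did not overlap. Without siRBM39-06 replicate 1, 95 sites were called in place of 94. Opposite events numbered 8 (1.46%), 49 moved with siSF3B1 only and 15 with siRBM39 only. Sites that add over 50 nt were called higher in 22.8% of 136 cases. The events printed here, 4 that could be placed on GRCh37, show the AG that one knockdown favoured: 30 bases of intron in lower case, the bases that the upstream site adds to the exon in capitals and 10 bases of the shared exon, 5′ to 3′. HNRNPUL1 adds 30 nt (chr19:41811551-41811580, + strand), GAK 33 nt (chr4:860290-860322, - strand), SLC35B1 25 nt (chr17:47783672-47783696, - strand) and FDPS 21 nt (chr1:155279834-155279854, + strand).
HNRNPUL1: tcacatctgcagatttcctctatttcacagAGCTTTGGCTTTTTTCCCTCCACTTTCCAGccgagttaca
GAK: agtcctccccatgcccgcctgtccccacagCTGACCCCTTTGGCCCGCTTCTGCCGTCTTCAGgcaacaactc
SLC35B1: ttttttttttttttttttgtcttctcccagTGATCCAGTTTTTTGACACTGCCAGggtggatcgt
FDPS: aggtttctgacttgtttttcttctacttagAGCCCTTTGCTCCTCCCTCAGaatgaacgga

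HNRNPUL1, an hnRNP-like protein, used its upstream site at 55 to 71.3% (median 65.6%) in siSF3B1, 0 to 12.7% (median 6.58%) in siRBM39 and 26.5 to 50.5% (median 39.2%) in siNT (57 ± 3.13 points (SE), adjusted p = 6.95e-15). GAK, a clathrin-uncoating kinase, did the reverse, with 31.8 to 48.7% (median 41.8%), 84.4 to 97.1% (median 87.5%) and 62.2 to 82% (median 75.5%) (-47.8 ± 3.95 points (SE), adjusted p = 4.28e-12). FDPS, farnesyl diphosphate synthase of the mevalonate pathway, had 75.8 to 94.4% (median 83.2%) and 57.4 to 70.2% (median 65.2%) (19.5 ± 2.50 points (SE), adjusted p = 5.81e-07). All 3 were opposite and free of overlap. SLC35B1, an ATP transporter of the ER, moved with siRBM39 only, at 63.3 to 83% (median 73.1%) against 35.7 to 55.8% (median 44.2%) in siSF3B1 and 23.7 to 47.2% (median 43.2%) in siNT (-29.2 ± 3.39 points (SE), adjusted p = 1.65e-07).

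MORF4L2, a chromatin protein related to MRG15, gave the largest difference and counted as 2 of the 8 opposite events, since its competing sites share reads. The site that adds 78 nt had a PSI of 69.2 to 83.1% (median 76.1%) in siSF3B1, 6.59 to 21.9% (median 15.2%) in siRBM39 and 38.5 to 60% (median 49.1%) in siNT (62.4 ± 2.83 points (SE), adjusted p = 3.18e-19), while the one adding 27 nt had 5.88 to 18.9% (median 9.71%) and 55 to 67% (median 60.9%) (-49.2 ± 3.11 points (SE), adjusted p = 7.15e-16). Neither overlapped. The other opposite events were 6 nt in ARFGAP1 (25.6 points), 6 nt in PSAP (-20.2) and 75 nt in AC024575.2 (-19.8). PSAP also holds the opposite 9 nt exon given above, and whether its events share reads was not checked.

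siSF3B1 alone brought out sites in INPPL1 and JTB that were rare otherwise. INPPL1, which encodes the lipid phosphatase SHIP2, used a site adding 82 nt at 45.5 to 60.1% (median 49.3%) in siSF3B1, 0 to 4.72% (median 1.94%) in siRBM39 and 2.14 to 10.7% (median 5.31%) in siNT (48 ± 2.79 points (SE), adjusted p = 1.61e-13). JTB added 151 nt at 31 to 49.5% (median 44.7%) and 0 to 3.74% (median 0%) (41 ± 2.79 points (SE), adjusted p = 3.27e-13). AP3D1, an adaptor subunit, differed by 37.7 points over 36 nt. ARL6IP4, a nuclear protein, exchanged 2 competing sites with siRBM39 only, one lower in siSF3B1 by -35.5 points and the other higher by 36.6. JTB thus held a retained intron and a 3′ site that both moved with siSF3B1 only. Whether the site lies inside that intron was not checked, so they may share reads and be no separate events.

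Few alternative 5′ splice sites were called, with 6 of 371 (1.62%) higher and 5 (1.35%) lower and 0 opposite, also at an unadjusted p under 0.05 in limma. The largest difference was in HNRNPH1, where both knockdowns raised a site adding 42 nt, to 44.1 to 62.7% (median 50.7%) in siSF3B1 and 22 to 31.1% (median 28.4%) in siRBM39 from 7.37 to 20.4% (median 16.7%) in siNT (24.2 ± 2.94 points (SE), adjusted p = 8.45e-06), at the cost of a site adding 12 nt (-24.1 points). LUC7L3, a U1-associated protein that works at 5′ sites, used a site adding 53 nt at 92 to 100% (median 96.6%) in siSF3B1 and 65.6 to 85.1% (median 73.2%) in siRBM39 (22.5 ± 2.99 points (SE), adjusted p = 3.92e-07). These did not overlap. The remaining siSF3B1-only sites were in WDR26 (15.4 points), PABPC4 (8.60) and AK1 (-5.92), and the 1 siRBM39-only site in SNRPB2 (-5.78), all with overlap. Without siRBM39-06 replicate 1, 8 sites were called in place of 11, and PABPC4, AK1 and SNRPB2 no longer passed (adjusted p = 0.0801, 0.085 and 0.085 in limma).

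CHD4 and SUPT5H, which the study followed as downstream genes of the spliceosome, were examined by fixed event. The paper reports that SF3B1 knockdown markedly altered both events and that RBM39 knockdown did not change them significantly. It used another method and shows the PSI distributions for 4OHT cells. An 84 nt intron of CHD4, a chromatin remodeller, was retained at 36.7 to 59.4% (median 41.5%) in siSF3B1, 12.2 to 26% (median 20.5%) in siRBM39 and 0.890 to 7.87% (median 3.75%) in siNT, 24.2 points apart between the knockdowns (exact permutation p = 0.000155). In these DMSO cells siRBM39 lay 16.2 points above siNT (exact permutation p = 0.000155). The 3 groups did not overlap, but the event failed the balance filter for introns, so it is not among the counts above. CHD4 mRNA lay at 169 to 217 CPM (median 191) in siSF3B1, 243 to 282 CPM (median 273) in siRBM39 and 305 to 334 CPM (median 319) in siNT (log2 fold change -0.48 ± 0.050 (SE), adjusted p = 1.18e-11), with no overlap of the knockdowns. In SUPT5H, a transcription elongation factor, a 12 nt microexon was included at 7.41 to 43.2% (median 24.4%) in siSF3B1, at 100% in all 8 siRBM39 libraries and at 0 to 94.4% (median 80.0%) in siNT, a gap of -76.1 points (exact permutation p = 0.000155). Inclusion in siRBM39 was 28.7 points above siNT (exact permutation p = 0.000155). The microexon rested on medians of 14, 7 and 9 reads and fell short of the coverage filter. SUPT5H mRNA did not pass, with 129 to 153 CPM (median 144) and 129.8 to 227 CPM (median 154) (log2 fold change -0.17 ± 0.10 (SE), adjusted p = 0.112).

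Finally, splicing calls were set beside the mRNA level of the same genes. Of 1155 genes with an exon lower in siSF3B1, 398 (34.5%) were lower and 403 (34.9%) higher in mRNA, near the 31.7% and 36.1% among all 3273 genes with a tested exon. Of 348 genes with an intron retained more in siSF3B1, 137 (39.4%) were lower and 100 (28.7%) higher, beside 34.9% and 33.96% of 2809 genes with a tested intron. The median log2 fold change of the first group was 0.0065 and of the second -0.065. These groups of genes were not tested against each other, and an event and its gene's mRNA were measured in the same libraries.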

How the data were processed

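RNA sequencing libraries (HiSeq2500, single-end, 50 bp, per the study's methods) of 48 samples were deposited as tables of the whole series. The authors made a table of raw read counts per gene with vast-tools version 2 on hg19, and a table of CPM values (a signal derived from counts plus 0.5, per 1000000, TMM-scaled) with edgeR and limma, whose versions are not given in the sources used here. The authors also deposited cRPKM values (RPKM corrected for mappability) and PSI percentages with read numbers and coverage scores for exons, introns and alternative splice sites, from the align, merge and combine steps of vast-tools. Strand handling of the counting is not given, so overlapping and antisense genes cannot be told apart, and reads of near-identical copies may be split. The event coordinates in the files follow GRCh38 although hg19 is named, so no position was taken from them. Exons were placed on GRCh37 by their length and both flanking intron lengths within the same gene, which placed 6302 of 7673 (82.13%) exons.

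Genes with at least 10000 counts over the 48 libraries were tested with edgeR 4.0.16 (quasi-likelihood, TMM, 6 groups of knockdown and treatment without a replicate term) in R 4.3.3, with Benjamini-Hochberg adjustment over all 9991. Library totals of 34659429 to 52734636 counts set the precision. The log2 fold changes are siSF3B1 minus siRBM39. Splicing events entered the test where every library had a coverage score of VLOW or better and PSI spanned 5 points or more across libraries. Introns also needed a read balance p of 0.05 or more, and 1 site was dropped from each set of alternative sites. The test was made with limma 3.58.1 on the logit of 0.01 + 0.98 × PSI as a fraction. Calls needed both an adjusted p of 0.05 and a change of 5 points. The SE of a PSI difference came from limma's unmoderated residual spread on the percent scale. Replicate libraries were compared by chi-square per degree of freedom, which was 42.7 to 144.9 between siRBM39-06 replicate 1 and the other libraries of that siRNA and 2.78 to 25.7 between pairs of siSF3B1 libraries of 1 siRNA, so none was a repeat of another. It was 45.2 and 62.8 between siRBM39-06 replicate 3 and replicates 2 and 4, and 4.79 between replicates 2 and 4. The count and event scripts were tested on simulated data with known changes. DESeq2 1.42.0, limma-voom, limma on the deposited CPM, other filters, single siRNA pairs, separate control libraries, a replicate term and libraries left out were tried as alternatives. The cRPKM values were read but no level between genes is compared here.

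Genes were named by rule: SF3B1, RBM39, CHD4 and SUPT5H; the 10 largest differences each way among called genes without overlap and with 1 direction in all siRNA pairings; the 6 opposite genes each way with the largest smaller change; the 4 largest per single knockdown and direction; and up to 3 per list and direction. Events followed the same scheme with 4 per type and direction, 5 opposite and 3 per single knockdown. For the largest differences, lack of overlap and 1 direction in all siRNA pairings were conditions of the naming and add no support. The GOPC, AP2M1, U2AF1, CD47, RPS24, HNRNPA2B1, PFKM, RHOT2 and SS18 exons and the downstream TPM1 exon were added after their values were seen. Some genes that the rule names are not reported here. The comparison, its members and the gene lists were chosen with earlier results of these data known. The files use older symbols for 60 listed genes, which were matched by Ensembl identifier. Sequences were read with pysam 0.24.0 under Python 3.11.15.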

Additional observations from a re-analysis of the deposited data

Results flagged for a closer look

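Within each knockdown group of 8 libraries, with both siRNAs pooled, 184 sets of values reported above were screened for a library that stands off from the rest. Of these, 10 (5.43%) passed Dixon's critical value, about the 1 in 20 that chance gives. Only siRBM39-06 replicate 1 and siSF3B1-13 replicates 1 and 4 appear more than 1 time. In siRBM39-06 replicate 1, SUPT5H reached 227 CPM (next library 170) and the PPP6R2 intron 7.34% PSI (next 3.12%). In siSF3B1-13 replicate 4, mean intron PSI was 4.01% (next 3.45%) and the PPP6R2 intron was at 29.2% (next 11.9%). In siSF3B1-13 replicate 1, ZNF451 lay at 43 CPM (next 52.4) and PLEKHJ1 at 8.53 CPM (next 6.86). Single libraries accounted for the rest: VNN1 at 0.0585 CPM in siSF3B1-13 replicate 3 (next 0.0742), the YTHDF2 intron at 12.4% in siRBM39-08 replicate 2 (next 3.62%), the AC024575.2 3′ splice site at 95.5% in siRBM39-08 replicate 4 (next 98.2%) and the SNRPB2 5′ splice site at 93.6% in siRBM39-06 replicate 4 (next 97.4%). The part of these libraries in the named results was not tested beyond the counts without siRBM39-06 replicate 1.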

How the results depend on the processing

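Of 157 alternative values of the 11 counts and means, 24 counts moved by over 1.5 times, the other counts did not, and every mean kept its direction and its side of the threshold. The count of called genes could not change in the settings without shared control libraries, which took the direct contrast from the main fit. The sizes of the means moved by over 1.5 times in 3 cases: without the range filter the exon gap was 1.00 and the intron gap 0.397 points, and without the balance filter the intron gap was 2.54. DESeq2 called 6846 genes, limma-voom 6821, and limma on the deposited CPM 7723 of 11428. Opposite genes numbered 1101 with 1 group per siRNA in place of 677. A fold of at least 2 left 462 genes. Requiring PSI between 1 and 99% for a plain logit left 472 exons, 92 introns and 146 3′ sites to test, of which 282, 50 and 34 were called. The LOW coverage score left 4168, 2963 and 313, of which 1119, 284 and 52 were called. A minimum of 10 points left 906 exons, 157 introns, 57 3′ sites and 5 5′ sites. Without the balance filter 1777 of 8557 introns were called. With siSF3B1-16 against siRBM39-06 or siRBM39-08 alone, 61 and 57 3′ sites were called. The 5′ sites, few to begin with, were 19 on the log-odds of reads plus 1, and 6, 4, 6 and 3 in the pairings of siSF3B1-13 with siRBM39-06 and siRBM39-08 and of siSF3B1-16 with the same 2. Without control libraries shared between the knockdowns, 825 and 954 genes and 37 and 44 events were opposite.

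Leaving out 1 replicate number at a time gave 5981 to 6845 called genes, 405 to 756 opposite genes, 3792 to 3914 genes in 1 knockdown only, 1710 to 1752 exons, 452 to 517 introns, 81 to 91 3′ sites, 5 to 10 5′ sites, 40 to 44 opposite events and 1845 to 1954 events in 1 knockdown only. The mean exon difference ran from -3.11 to -3.02 points and the mean intron difference from 1.29 to 1.43. The opposite genes fell to 432 without replicate 2 and to 405 without replicate 3 of each siRNA, and the 5′ sites to 5 in each case. Fewer libraries enter those fits. Without siRBM39-06 replicate 1, 5 gene-list counts moved by over 1.5 times: 2 higher recombination genes, 2 lower RBM39 relatives, 1 lower p53 target, 15 higher cytosolic ribosomal proteins and 0 higher fibroblast markers in place of 4, 1, 2, 7 and 1.

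Replicate numbers did not pair the libraries: same-numbered siSF3B1 and siRBM39 libraries deviated with correlations from -0.605 to 0.8 (median -0.0071), 6 of 16 over 0.1, beside a median of 0.0078 for different numbers. With a replicate block, 6711 genes were called, 660 were opposite and 3847 moved in 1 knockdown only, and 1795 exons, 507 introns, 94 3′ sites and 9 5′ sites were called, with 50 events opposite and 1987 in 1 knockdown only.

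Among 193 named genes, 3758 of 3856 alternative values kept direction and side of the threshold, 86 lost the call, 3 gained it and 9 reversed. The settings without shared control libraries took the direct contrast of genes from the main fit. Their values are among those that held, could not change and add no support. All 9 came from single siRNA pairings. With siSF3B1-16 against siRBM39-08, TRIB3 was -0.16, COL1A1 -0.16, DYRK2 -0.035, SUPT5H 0.088, SDF2L1 0.12 and TAP1 -0.077 on the log2 scale. SDF2L1 was 0.38 with siSF3B1-13 against siRBM39-08, and WARS 0.072 and TAP1 -0.12 with siSF3B1-16 against siRBM39-06. Among 51 named events, 789 of 836 alternative values held and 47 lost the call. The cause was not tested for any of these. Intervals of single PSI values rest on the reads of an event, and differences under 5 points were not detectable as calls by construction.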

Other observations

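Several of the opposite exons not described above, chosen here after their values were seen, lie in genes of the cell surface, matrix and cytoskeleton. F3, tissue factor, included a 495 nt exon at a mean of 13.0% in siSF3B1, 45.8% in siRBM39 and 27.4% in siNT. ABLIM3, an actin-binding LIM protein, included 48 nt at 53.3, 95.2 and 78.0%. P4HA2, a collagen prolyl hydroxylase subunit, included 60 nt at 54.1, 92.5 and 83.0%, FAT1, a large cadherin, 36 nt at 67.8, 88.8 and 82.1%, and MYL6, a myosin light chain, 45 nt at 56.0, 73.8 and 67.1%, in the same order of groups. In the other direction, the focal adhesion protein paxillin (PXN) held 2 opposite exons, of 309 nt at 28.4, 2.15 and 8.03% and of 96 nt at 33.9, 14 and 23.05%. TNC, tenascin C, included 273 nt at 24.6, 12.7 and 18.6%, and was the 1 opposite exon whose knockdown groups overlapped. The gene functions of the opposite exons were not compared with those of other exons.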
